A study of Homo sapiens with 4 samples.

Results

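The genes described here are the interleukins, the CC chemokines, their receptors, the colony-stimulating factors with LIF and oncostatin M, and the subunits and inhibitors of NF-kB. They were chosen by gene symbol alone, from probes with exactly 1 symbol in the platform annotation. The choice gave 109 of 26629 probes and 82 of 12483 genes: 17 interleukins (the antagonist IL1RN among them), 24 interleukin receptors, 17 CC chemokines, 7 chemokine receptors, 9 genes of the CSF, LIF and OSM group, and 8 NF-kB genes. The neutrophil-attracting CXC ligands, IL8 included, are not among them. IL1A, IL18, CSF2, REL and RELB, which were to be named in any case, had no probe under those symbols.

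RNA came from A549, an established human lung adenocarcinoma line grown in DMEM with foetal calf serum and left untreated. Cultures transfected with the microRNA gene let-7a-3 (let-7-a3 in the titles) were set against parental A549 cultures, 1 of each on every one of 4 two-colour cDNA arrays. Total RNA was amplified in 1 round with T7 RNA polymerase before labelling with Cy3 or Cy5. The dyes were exchanged, so that arrays 1 and 3 have 1 orientation and arrays 2 and 4 the other. The labels do not give the vector, its promoter, or whether the transfected cultures descend from 1 clone. The control is parental and no mock transfection is named, so that transfection and let-7a-3 cannot be told apart. The design text counts 4 culture replicates of each kind but does not say whether they came from separate transfections.

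Each deposited value is the log ratio of the 2 channels of an array after variance stabilization. Neither the labels nor the table say what the logarithm's base is, which channel is the numerator, or whether swapped arrays were flipped. A sign is therefore the sign in the table and names no culture, and no fold is given. The mean over the 4 arrays is called the shared component, and the part that flips with the dyes is called the alternating component (positive where arrays 1 and 3 are higher). Both were tested with limma, because the labels do not say which of them is the let-7a-3 effect. Over all probes the array medians lay between -0.0022 and 0.017. With 4 arrays, precision is low.

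Interleukins and CC chemokines are secreted signals between immune, stromal and epithelial cells. Many interleukins act through paired receptor chains that activate JAK kinases and STAT factors, while the interleukin 1 family acts through MYD88, IRAK kinases and the IKK complex to release NF-kB from its IkB inhibitors. NF-kB then drives many cytokine genes and, as feedback, its own inhibitors. Lung epithelial cells are known to secrete IL6 and several chemokines in inflammation, whereas many other cytokines are made mainly by leukocytes. The let-7 family is known to bind IL6 messenger RNA, among many targets, and to be repressed by LIN28.

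The overexpressed gene gives rise to 2 mature strands, shown because they are the agent of the experiment. Capitals mark the seed, bases 2 to 8. The sequences are from RefSeq (GRCh38.p14), on the plus strand at chr22:46112752-46112773 and chr22:46112800-46112820.
hsa-let-7a-5p: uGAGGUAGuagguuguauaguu
hsa-let-7a-3p: cUAUACAAucuacugucuuuc

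NF-kB binding sites resemble GGG, 2 bases of any kind and TTTCC, and this motif was searched on both strands in RefSeq promoters of 300 bases, 250 before and 50 after a gene's start. Of the 82 genes 60 had a promoter in the table, and the motif was in 12 of these (20%), against 635 of 27305 genes of all kinds (2.33%). The 12 were CCL20, CCR9, IL1RN, IL27RA, IL32, IL4R, IL6, NFKB1, NFKB2, NFKBIA, NFKBIB and NFKBIZ. A match is a string of letters and not a measured site. The windows below show 6 of them with the motif in capitals, each read along the gene's own strand: IL6 (plus strand, chr7:22727107-22727156), CCL20 (plus, chr2:227813743-227813792), IL32 (plus, chr16:3065284-3065333), IL27RA (plus, chr19:14031674-14031723), NFKB1 (plus, chr4:102501290-102501339) and NFKBIA (minus, chr14:35404801-35404850).
IL6: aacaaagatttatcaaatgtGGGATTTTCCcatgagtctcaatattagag
CCL20: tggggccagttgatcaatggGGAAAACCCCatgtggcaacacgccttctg
IL32: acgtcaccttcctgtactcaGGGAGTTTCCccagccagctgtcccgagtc
IL27RA: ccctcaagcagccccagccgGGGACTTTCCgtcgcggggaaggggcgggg
NFKB1: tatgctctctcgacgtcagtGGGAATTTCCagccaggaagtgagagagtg
NFKBIA: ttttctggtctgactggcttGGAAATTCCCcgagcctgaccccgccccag

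Many log ratios in the table recur to the last written digit in other probes of the same array, on array 1 for 71.5% of all probes and on arrays 2, 3 and 4 for 51.9%, 55.4% and 52.8%. The most common single value was held by 69 probes on array 1 and by 16 on each of the others. Of the 109 probes of the cytokine set, 36 had a repeated value on all 4 arrays (33.0%) and 22 on none (20.2%), close to all probes (30.6% and 18.2%). By contrast 52 of 70 probes of cytosolic ribosomal proteins, which every cell transcribes abundantly, were repeated on no array (74.3%), and only 3 of 27 probes of olfactory and taste receptors, beta-defensins and keratin-associated proteins were (11.1%). These gene classes were picked for comparison after the repeats had been noticed. Probes past the test in the shared component were repeated on no array in 71.3% of 550 cases, and those past it in the alternating component in 20.9% of 1141. How the repeats arose is not stated, and their relation to brightness was not tested, as no intensities were used.

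**Figure D1:**
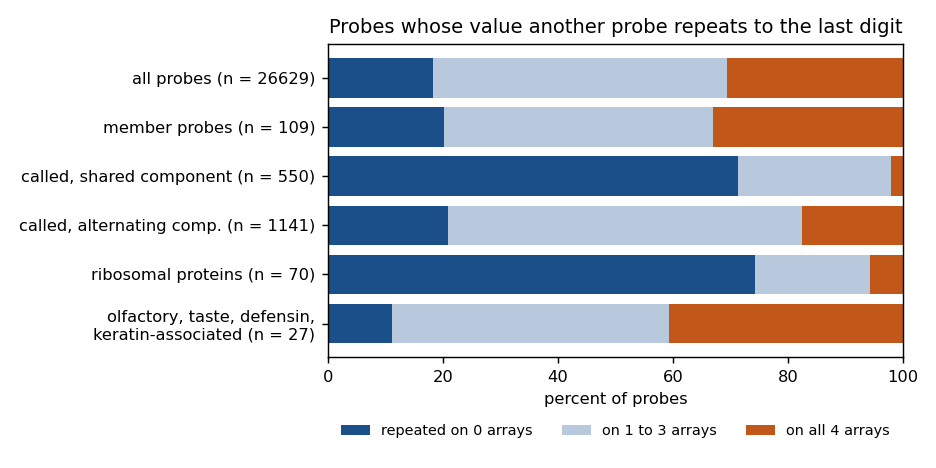
Percent of probes (x axis) whose log ratio is held, to the last digit, by another probe of the same array on 0, on 1 to 3 or on all 4 arrays, for 6 sets of probes. The cytokine probes, with 20.2% repeated on no array, lie near all probes (18.2%), while probes called in the shared component (71.3%) lie near ribosomal protein probes (74.3%).

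Among cytokine probes, the values of IL6, CCL2, LIF, OSM, CCR1, CCR9, both OSMR clones, IL1RAP, IL7R and 4 of the 5 NFKB1 clones recurred elsewhere on all 4 arrays. IL6 and CCR1 even share the same value on array 1, -0.12. CCL16, CCL5, CCL7, CCL8, CCL22, CCR6, CCR10, IL27RA, RELA, NFKBIZ and IL10RB were unrepeated throughout. The table gives no level for any of these probes.

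No gene of the set passed the test in the shared component. With the probes of each gene averaged, 0 of 82 genes had a limma adjusted p under 0.05 (background over all 12483 genes: 3.04%), and 0 of 109 single probes did (background over all 26629 probes: 2.07%). Before adjustment, 7 genes and 9 probes had a limma p under 0.05, against 14.6% of all genes and 12.5% of all probes. The median of the 82 genes was 0.015 and that of all genes 0.0069, with 50 genes above and 32 below 0. The size of a typical shared value, regardless of sign, was also alike, with a median of 0.044 for the set and 0.045 for all genes. The sign was the same on all 4 arrays in 8 of the 82 genes, against 15.8% of all genes, and in 11 of the 109 probes, against 14.1% of all probes.

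These counts do not show that differences are absent. The intervals that follow hold only for the shared component of the deposited ratios, which may not be the let-7a-3 effect. The 95% intervals of the shared component, not adjusted for the number of genes, had a median half-width of 0.10 and lay within -0.25 to 0.25 for 72 of 82 genes and within -0.5 to 0.5 for all 82. The smallest size that passed among all 12483 genes was 0.19, the largest in the set was also 0.19, and the median size of the 379 that passed was 0.29. The count was also 0 without array 2 and without array 4. Without array 3, however, 13 of the 82 passed (background 11.8%), CCL7, CCL26, CCR1, CCR6, CCR9, CSF1R, IL20RB, IL27RA and NFKBIE among them, and without array 1 CCL16, CSF1 and IL13RA1 passed (background 6.39%). Those fits have 1 residual degree of freedom. In the alternating component of the fit on all arrays some 95% intervals reached past -0.25. Among them were those of IL11 (-0.32 to -0.12), CCL27 (-0.31 to -0.11) and CCL19 (-0.30 to -0.11).

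**Figure D2:**
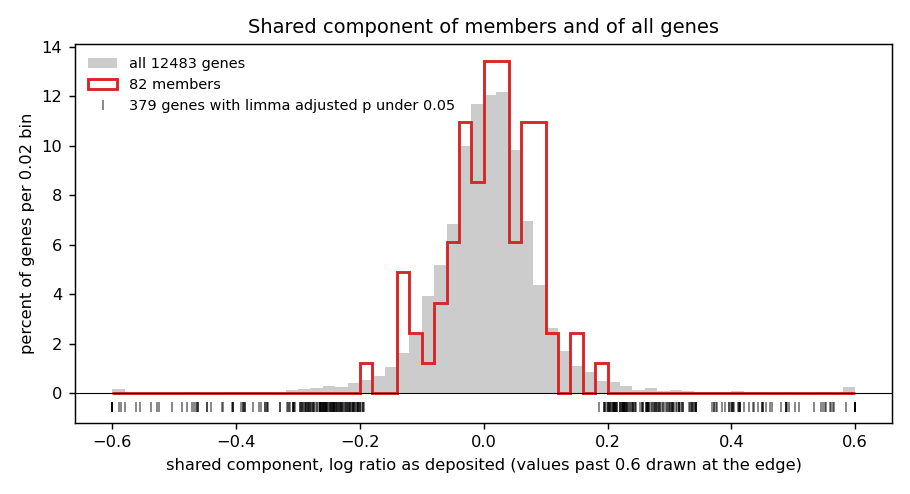
Percent of genes (y axis) by shared component in bins of 0.02 (x axis, log ratio as deposited), for all 12483 genes in grey and the 82 members in red. Ticks under the axis mark the 379 genes past a limma adjusted p of 0.05, and the members lie between -0.18 and 0.19, where few or no ticks fall.

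The values by role that follow are those of the shared component unless the alternating one is named. In the shared component 6762 of all 12483 genes were positive and 5721 negative. The secreted interleukins had the narrowest range of the 6 role groups in the shared component, but the widest in the alternating one. Their 17 shared values ran from -0.078 to 0.084 around a median of 0.0070, 9 positive and 8 negative. In that component 0 had an unadjusted p under 0.05 in limma (14.6% of all genes). Their alternating values ran from -0.22 to 0.18. There 6 had a limma p under 0.05 before adjustment (25.6% of all genes), and IL11 alone passed after it (3.29% of all genes). IL6, the driver of the hepatic acute phase response and of STAT3 signalling, had log ratios of -0.12, -0.14, 0.14 and -0.19 on arrays 1 to 4. Array 3 thus went against the other three, and the mean of -0.078 ± 0.15 (SD, n = 4) had a 95% interval of -0.20 to 0.040. IL1B, the secreted interleukin 1 made by an inflammasome-dependent cut, stood at 0.029, -0.11, 0.088 and -0.14, with a mean of -0.035 ± 0.11. Its sign changed with the dye orientation. IL37, an anti-inflammatory member of the interleukin 1 family, was positive throughout at 0.11, 0.018, 0.019 and 0.19 (mean 0.084 ± 0.082, limma adjusted p = 0.46). IL34, an alternative ligand of the CSF1 receptor, averaged 0.063 ± 0.074. IL32, a cytokine of epithelial and T cells, averaged 0.071 ± 0.064 over 3 clones, all with positive means between 0.030 and 0.094.

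Receptor chains of the interleukins spread more widely, from -0.13 to 0.19, with 14 positive and 10 negative and a median of 0.0070. IL20RB, the beta chain of the receptors for IL19, IL20 and IL24, had the largest shared value of all 82 genes. Its log ratios were 0.22, 0.33, 0.093 and 0.11, positive on every array, with a mean of 0.19 ± 0.11 (95% interval 0.069 to 0.30; unadjusted p = 0.0063, limma adjusted p = 0.12). Its partner chain IL20RA averaged 0.053 ± 0.15 over 3 clones, and the ligand IL19 -0.030 ± 0.14. IL27RA, the receptor chain specific to IL27, stood at 0.14, 0.31, -0.14 and 0.29, so that array 3 alone was negative (mean 0.15 ± 0.21, limma adjusted p = 0.23). Its mean was -0.00027 over arrays 1 and 3 and 0.30 over arrays 2 and 4. The alternating component of IL27RA was thus as large as the shared one (-0.15, limma adjusted p = 0.13). IL13RA1, which pairs with IL4R to bind IL4 and IL13, averaged -0.13 ± 0.15 (limma adjusted p = 0.40) and IL4R itself -0.033 ± 0.14. For the IL6 receptor, neither the binding chain IL6R (0.0047 ± 0.12) nor the signalling chain IL6ST, known as gp130 (0.029 ± 0.059), differed from 0 beyond the spread between arrays. The same held for IL1R1 (-0.041 ± 0.11) and its co-receptor IL1RAP (-0.067 ± 0.11), both with negative values on arrays 2 and 4. That spread includes the part that flips with the dyes. The alternating component was -0.094 for IL6R, 0.037 for IL6ST, 0.086 for IL1R1 and 0.086 for IL1RAP. Their limma adjusted p there was 0.21, 0.60, 0.22 and 0.23.

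Of the 17 CC chemokines 13 had a positive shared value (6762 of all 12483 genes), with a median of 0.060 and a range from -0.13 to 0.15. The median of all genes was 0.0069. In limma 0 of the 17 passed in the shared component (3.04% of all genes). There 3 had a p under 0.05 before adjustment (14.6% of all genes). CCL16, a chemokine of liver origin, was positive on all arrays at 0.14, 0.21, 0.23 and 0.048 (mean 0.15 ± 0.081, 95% interval 0.050 to 0.26, limma adjusted p = 0.14). CCL2, the main monocyte attractant, was negative on all arrays at -0.10, -0.048, -0.039 and -0.23 (mean -0.11 ± 0.090, 95% interval -0.21 to 0.00085, limma adjusted p = 0.35). CCL16 was unrepeated on every array, and CCL2 repeated on every array. CCL20, the ligand of CCR6 and a chemokine of epithelial cells, had -0.019, 0.092, 0.064 and 0.24 (mean 0.095 ± 0.11, limma adjusted p = 0.39). CCL26, an eotaxin, stood at -0.13, -0.17, 0.12 and -0.32, and CCL8 was near 0 on arrays 1 and 3 (-0.024 and -0.026) but at 0.23 and 0.19 on arrays 2 and 4. CCL5, also called RANTES, ranged from -0.14 to 0.21 around a mean of 0.033 ± 0.15. CCL4L1 is a near-identical copy of CCL4, and a cDNA clone can bind both, so its value (0.077 ± 0.064) cannot be assigned to 1 of them.

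Neighbours on a chromosome had shared values of both signs in 4 of 5 clusters picked by hand, the exception being the pair CCL27 and CCL19 (0.017 and 0.060). How often neighbouring genes of all kinds differ in sign was not computed. The count therefore does not tell whether neighbours move together. Other neighbours in the set were left out. Among them are IL31RA and IL6ST on chromosome 5, both positive (0.085 and 0.029), and LIF and OSM on chromosome 22, of opposite sign (0.038 and -0.011). CCL2, CCL7, CCL11, CCL8 and CCL1 lie within 108 kb on chromosome 17 (chr17:34255285-34363233, GRCh38.p14), and their shared values ran from -0.11 for CCL2 to 0.11 for CCL7, 3 positive and 2 negative. In the interleukin 1 cluster on chromosome 2 (chr2:112829751-113134014), IL1B, IL37, IL36G, IL36B and IL1RN lay between -0.035 and 0.084, likewise 3 positive and 2 negative. The receptor genes CCR9, CXCR6 and CCR1 on chromosome 3 (chr3:45886064-46208313) stood at -0.11, 0.029 and -0.13. The second CC chemokine cluster on chromosome 17 (CCL5, CCL16, CCL18 and CCL3, chr17:35871491-36090143) ran from -0.036 to 0.15, 3 positive and 1 negative.

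Chemokine receptors are mostly leukocyte genes, and 0 of 7 passed in limma in either component (3.04% of all genes in the shared and 3.29% in the alternating one). CCR1 alone had a limma p under 0.05 before adjustment in the shared component (14.6% of all genes). CCR10 alone had one in the alternating component (25.6% of all genes), with a limma adjusted p of 0.069. CCR1, a receptor of CCL3 and CCL5, was lowest at -0.12, -0.086, 0.014 and -0.33 (mean -0.13 ± 0.15, limma adjusted p = 0.30). CCR6, the receptor of CCL20, had 0.17, 0.093, -0.048 and 0.23 (mean 0.11 ± 0.12), with array 3 again apart in sign. CXCR4, the receptor of CXCL12 and a gene often studied in metastasis, averaged -0.042 ± 0.093 and the homing receptor CCR7 0.0087 ± 0.055 over 2 clones of opposite sign.

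In the CSF, LIF and OSM group, CSF1, the growth factor of macrophages, came nearest to the threshold of all 82 genes in the shared component. Its log ratios were -0.22, 0.0026, -0.38 and -0.13, so that array 2 stood at 0 and the others below. The mean was -0.18 ± 0.16 (95% interval -0.29 to -0.074; unadjusted p = 0.0047, limma adjusted p = 0.097). Its receptor CSF1R went from 0.32 on array 1 to -0.086 on array 4 (mean 0.092 ± 0.18), and the other ligand of that receptor, IL34, is given above. LIF, an IL6-type cytokine, averaged 0.038 ± 0.15, its receptor LIFR -0.046 ± 0.13 over 3 clones, and OSMR, the oncostatin M receptor, 0.042 ± 0.10 over 2. CSF3, the growth factor of granulocytes, stood at -0.011 ± 0.093. In this group of 9 genes 5 shared values were positive and 4 negative. In limma CSF1 alone had a p under 0.05 there before adjustment (14.6% of all genes). In the alternating component 4 did (CSF1, CSF3R, LIF and LIFR), against 25.6% of all genes. After adjustment 0 passed in either component in limma (3.04% of all genes in the shared and 3.29% in the alternating one).

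In the shared component 0 of the 8 NF-kB genes had a p under 0.05 in limma before adjustment (14.6% of all genes). In the alternating one NFKBIA and NFKBIB did (25.6% of all genes). Past the adjusted threshold were 0 in either (3.04% and 3.29% of all genes). RELA, the p65 subunit, was positive on every array at 0.18, 0.043, 0.041 and 0.059 (mean 0.081 ± 0.068, 95% interval -0.018 to 0.18, limma adjusted p = 0.45). NFKB2, the p100 precursor of p52, was also positive on every array at 0.046, 0.11, 0.0099 and 0.068 (mean 0.058 ± 0.042, limma adjusted p = 0.56). NFKB1, the p105 precursor of p50, averaged -0.039 ± 0.092 over 5 clones. Among the inhibitors, NFKBIA (IkB alpha), a feedback target of NF-kB, had -0.071, 0.25, -0.047 and 0.17, negative in 1 orientation and positive in the other. NFKBIE (IkB epsilon) was lowest in the group at -0.33, -0.18, -0.14 and 0.13 (mean -0.13 ± 0.19, limma adjusted p = 0.38). The 12 genes with the kB motif had a median shared value of 0.036, 8 positive and 4 negative, and the 48 with a promoter in the table but no motif one of 0.019.

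**Figure D3:**
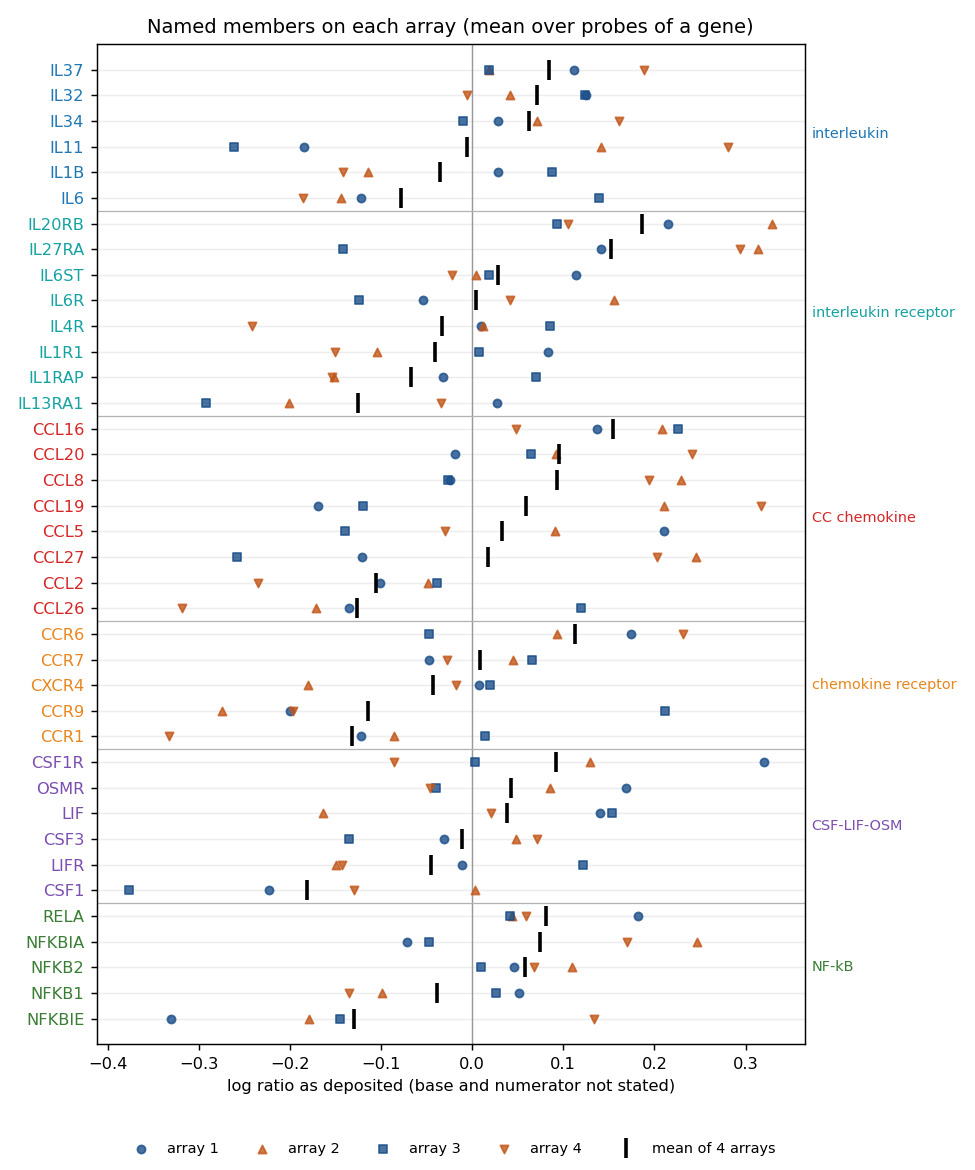
Log ratio as deposited (x axis) of the 38 named members on each of the 4 arrays, averaged over the probes of a gene; blue points are arrays 1 and 3, orange triangles arrays 2 and 4, and black bars the mean. Most rows span 0, and IL20RB, CCL16, CCL2, IL37, RELA and NFKB2 are the rows with all 4 points on 1 side.

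Clones of 1 gene did not always have the same sign. Of the 17 genes with 2 or more probes, 9 had all probe means on 1 side of 0. The same share over all 5075 genes with 2 or more probes was not computed. The count is therefore no trait of the set. NFKB1 had the most clones, 5, with shared values from -0.18 to 0.086, 4 of them negative. The lowest clone stood at -0.17, -0.049, -0.15 and -0.34 on arrays 1 to 4, 1 sign throughout, and did not pass (limma adjusted p = 0.23). IL17RE, a receptor chain for IL17C, had the smallest adjusted p of all 109 probes in the shared component of limma, 0.11, for a clone at -0.35, 0.038, -0.44 and -0.026 (mean -0.19), while its second clone averaged 0.096. IL17RB, a receptor of IL25, ranged from -0.15 to 0.056 over 4 clones, and the T-cell attractant IL16 from -0.086 to 0.064 over 4. All 3 clones of IL20RA and of IL32 had positive means, as had both clones of IL6ST and of OSMR, none past the threshold.

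**Figure D4:**
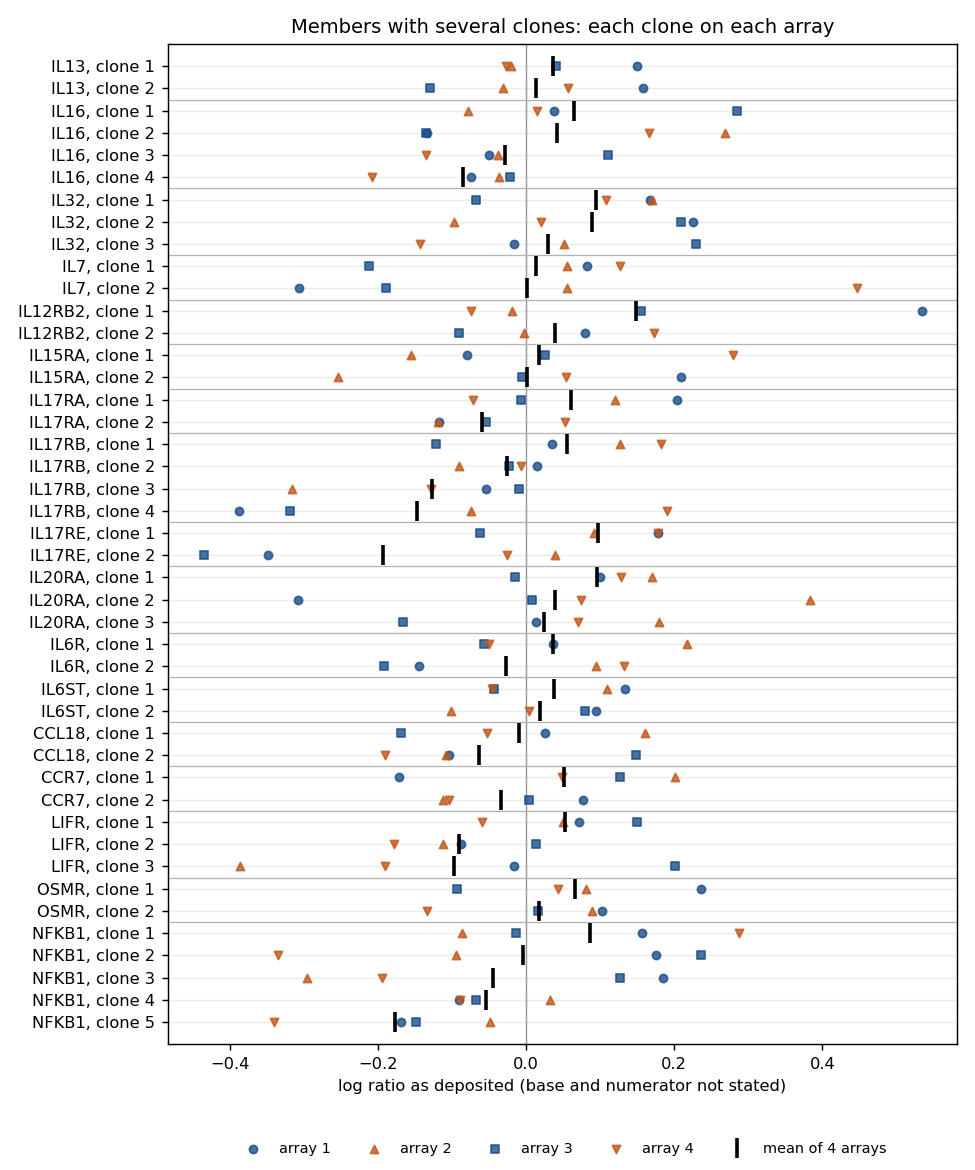
Log ratio as deposited (x axis) on each array for every clone of the 17 members with more than 1 probe; symbols are as in the plot of named members, with a black bar for the mean of 4 arrays. Clones of NFKB1, IL17RB, IL16 and IL17RE fall on both sides of 0, while those of IL20RA and IL32 have means above it.

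In the alternating component 3 of 82 genes passed, all negative, that is lower on arrays 1 and 3 than on arrays 2 and 4 (background 3.29% of all genes in either direction, and 1.39% for negative values). The share is near the background. Of the 109 single probes 0 passed in limma (background 4.28%), and 22 had a p under 0.05 before adjustment (25.2% of all probes). IL11, a cytokine of the IL6 family that signals through gp130, had log ratios of -0.18 and -0.26 on arrays 1 and 3 against 0.14 and 0.28 on arrays 2 and 4 (alternating component -0.22, limma adjusted p = 0.045). CCL19, a ligand of CCR7, had -0.17 and -0.12 against 0.21 and 0.32 (-0.20, limma adjusted p = 0.045). CCL27, a skin-homing chemokine, had -0.12 and -0.26 against 0.25 and 0.20 (-0.21, limma adjusted p = 0.047). In these 3 genes the sign alternated with the dye on all 4 arrays. It did so in 24 of the 82 genes, these 3 included, against 28.2% of all genes. Each of the 3 has 1 clone, with a repeated value on 1 of the 4 arrays. CCL27 and CCL19 are also neighbours, within 29.4 kb on chromosome 9 (chr9:34661890-34691276). Before adjustment, 21 genes had a limma p under 0.05, against 25.6% of all genes. The count of genes past the adjusted threshold was 0 without array 2 and without array 4, 15 without array 1 (background 18.4%) and 10 without array 3 (background 12.7%). It was also 0 after centring each array on its median or scaling it, where the smallest adjusted p in the set was 0.050 and 0.051.

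**Figure D5:**
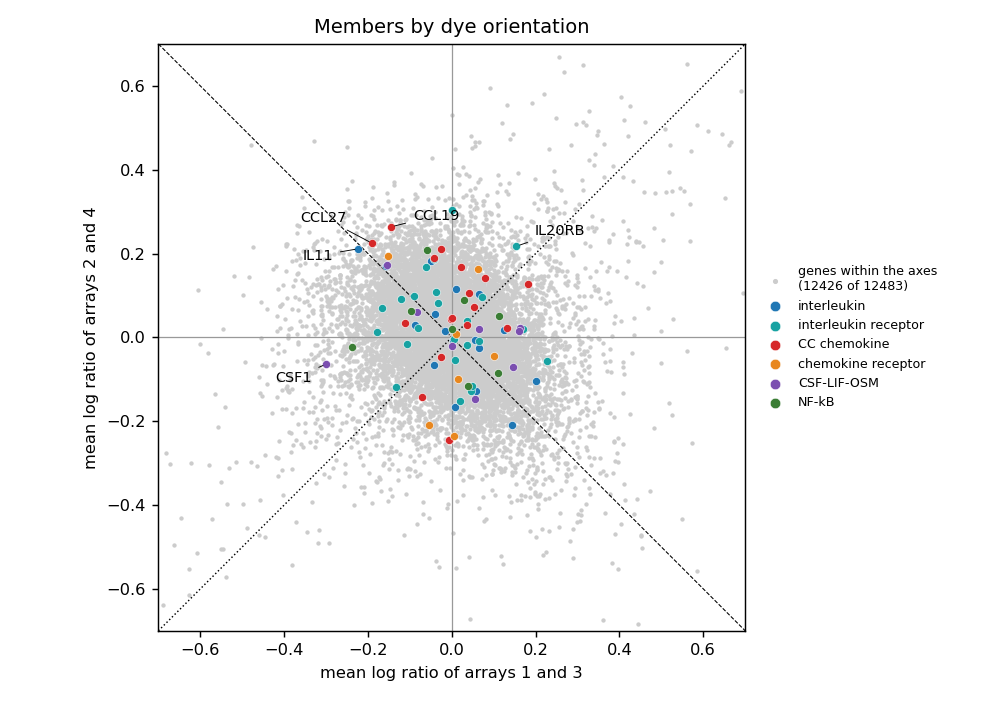
Mean log ratio of arrays 1 and 3 (x axis) against that of arrays 2 and 4 (y axis) for all genes in grey and the members coloured by role; the dotted diagonal is an equal ratio in both orientations and the dashed one an opposite ratio. IL11, CCL19 and CCL27 lie along the dashed diagonal at alternating values of -0.22, -0.20 and -0.21, and IL20RB near the dotted one at 0.19.

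Probes with few repeated values gave room for a narrower comparison, chosen after the data were seen. Of the 109 probes 33 had a repeated value on at most 1 array, and 0 of them passed in the shared component of the fit over all probes, against 5.56% of all such probes. In a fit on those probes alone the count was still 0 of 33 in limma (background 10.8%; smallest adjusted p in the set 0.064), and with genes averaged over them CCL16 alone passed (limma adjusted p = 0.043; background 12.8% of 5787 genes). Both gene counts rest only on the members with such a probe. In 21 of them the least repeated probe recurred on 0 arrays, and in 11 on 1 array. The alternating component then held 7 of the 33 probes (background 19.3%), those of CCL19, CCL27, CCR10, CSF3R, IL11, IL16 and NFKB1. Of that smaller set of genes 8 passed in it (background 19.5%), the same 7 with NFKBIA.

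Genes that carry or answer cytokine signals were read from lists of genes outside the set. Over all genes 3.04% passed in limma in the shared component and 3.29% in the alternating one. Before adjustment 14.6% had a limma p under 0.05 in the shared one. Of 20 measured genes of JAK-STAT signalling 0 passed in the shared component in limma. There 2, TYK2 and STAT5B, had a p under 0.05 before adjustment, and the median was 0.0031. In the alternating component JAK1, the kinase bound to gp130 and to many interleukin receptors, passed (0.27, limma adjusted p = 0.039). SOCS3, a feedback inhibitor induced by STAT3, stood at 0.0052 ± 0.033 in the shared component, and STAT3 at 0.0011 ± 0.14. Of 18 measured genes of interleukin 1 receptor and IKK signalling 0 passed in limma in either component, and ECSIT alone had a p under 0.05 in the shared one before adjustment. Among 14 measured NF-kB and acute-phase targets, IER3 passed in the shared component with a positive value (0.77 ± 0.17, limma adjusted p = 7.0e-05), and 13 did not, SOD2 (0.029 ± 0.092), SAA1 (0.093 ± 0.25) and C3 (0.027 ± 0.080) among them. Of 9 measured CXC ligands CXCL1 (-0.46 ± 0.099), CXCL3 (-0.41 ± 0.13) and CXCL5 (-0.35 ± 0.10) passed in that component with negative values in limma (background 3.04%), and CXCL2 (-0.0044 ± 0.16) did not.

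Presence of a cell type cannot be read from ratios, as the table has no levels. Among 7 measured epithelial and A549 markers KRT8 passed with a positive value (0.39) and AKR1B10 with a negative one (-0.84) in the shared component (background 3.04% of all genes). None of the measured markers of T cells (5), B cells (3), myeloid cells (4), fibroblasts (3) or endothelium (3) passed in limma in either component (background 3.04% and 3.29%). At an unadjusted limma p under 0.05 in the shared one were 0, 0, 1, 1 and 0, against 14.6% of all genes.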

How the data were processed

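The authors ran ArrayMagic with VSN, a variance-stabilizing normalization, on GenePix files and then limma, per the series' design text. The deposited table holds 1 log ratio per probe and array, with no missing value and no intensity. The labels name no log base, numerator, spot filter or version. VSN shrinks the ratios of dim spots.

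The log ratios were used as deposited, without further normalization. Probes were named from the platform annotation; all 82 genes matched the GRCh38.p14 gene table. All probes, and all genes (mean over 1-symbol probes), were fitted in limma 3.58.1 (R 4.3.3) with a common and a dye-orientation coefficient, leaving 2 residual degrees of freedom, to which moderation added 5.89 for genes. Two-sided p-values were adjusted over the whole table by Benjamini-Hochberg, and 0.05 was the threshold. ± is the SD over the 4 arrays. The fit was also run on simulated data, where only effects of at least 0.5 had to be recovered. Smaller effects were planted too, but their recovery was not required and is not given here. Every planted effect was larger than the shared values of the set (largest 0.19). The check therefore does not show how often effects of the set's size would be found.

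Members and lists were chosen with earlier results of these data known. Named genes are those past a test, the 3 with the largest moderated statistic per role group, and 22 measured of 27 fixed names. Beyond this rule, some genes were named after their values were seen (the repeats, clones, neighbours and the partners of named receptors). Alternatives were no dye term, centring, scaling, quantile normalization, robust or no moderation, other thresholds, other probe choices and leaving out each array. Figures used matplotlib 3.10.9.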

Additional observations from a re-analysis of the deposited data

Results flagged for a closer look

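On a single array 5 of the 82 genes had a value far from the other three, by Dixon's 95% criterion for the gap over the range. Chance alone gives about 1 in 20 such genes. CCR9 stood at 0.21 on array 3, where the nearest other array had -0.20. IL17RB was at 0.059 on array 4 (nearest -0.089), and IL19 at 0.18 on array 2 (nearest -0.076). IL2RG, the common gamma chain of several interleukin receptors, was at -0.17 on array 1 (nearest 0.010), and RELA at 0.18 on array 1 (nearest 0.059).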

How the results depend on the processing

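The count of genes past the threshold in the shared component was 0 of 82 in the reported fit. It became 1 at an adjusted p under 0.1 (CSF1), 1 on probes with few repeated values (CCL16, added after seeing the data), and 0 to 13 with 1 array left out; under the other alternatives it was 0. The probe count there was 0 under every alternative run. The 3 genes of the alternating component became 0 with no dye term, with centring, with scaling, with no moderation, at an adjusted p under 0.01, at a size of at least 0.25 and with 1 probe per gene. They became 8 at 0.1 and 8 on probes with few repeated values, and 0 to 15 with 1 array left out. The probe count of 0 in that component became 4 with quantile normalization, 13 at 0.1, 1 with 1-symbol probes only, 7 on probes with few repeated values, and 0 to 6 with 1 array left out. The causes were not tested, except that leaving out an array leaves 1 residual degree of freedom. The median of the set was 0.035 on probes with few repeated values, against 0.015. On those probes fewer than 82 genes remained, so the gene counts and the median there rest on a smaller set.

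Of 435 values of the 38 named genes under alternatives, 409 kept direction and side, 12 passed under the alternative only, and 14 changed sign. IL6R turned to -0.0034 with centring and -0.0030 with scaling. With 1 array left out the ranges that crossed 0 were -0.017 to 0.052 for CCL27, -0.055 to 0.12 for CCL5, -0.020 to 0.037 for CCR7, -0.038 to 0.015 for CSF3, -0.040 to 0.029 for IL11, -0.097 to 0.030 for IL4R, -0.024 to 0.033 for IL6R, -0.0081 to 0.084 for LIF and -0.0098 to 0.094 for OSMR. Other named values kept their sign but moved by over 1.5 times, among them IL13RA1 (-0.21 to -0.045), CCR9 (-0.22 to -0.012), IL6 (-0.14 to -0.013) and CSF1R (0.012 to 0.17). Each array holds both cultures, so the fitted log ratio is already a comparison within an array. No further pairing was possible, as no 2 groups of arrays share numbers.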
